A study of Rattus norvegicus with 29 samples.

Results

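Pioglitazone (PIO), a thiazolidinedione used against type 2 diabetes, was compared with control diet in the hippocampus of young rats by gene expression arrays. The comparison took in every array that the labels place in the young control or the young PIO group, which was 16 of the 29 arrays of the study, 8 per group and 1 per animal. Both groups were male Fischer 344 rats of 7 to 8 months. The young PIO rats had been fed the drug in their chow for 4 to 5 months, from 3 months of age, in a study designed for about 2.3 mg/kg body weight per day over both ages, and the young controls had been fed chow without it. The tissue was the dorsal and ventral ends of the hippocampus that remained after slices had been cut, combined per animal, so that each value is a mean over all cells of the tissue, and fewer cells of a type cannot be told apart from less RNA per cell. The 13 aged arrays came from male Fischer 344 rats of 21 to 22 months fed control or PIO diet from 17 months of age (7 aged control, 6 aged PIO). They served to estimate the spread and for the test of whether the drug difference depended on age. The PIO diet was formulated separately for young and aged rats, and the dose reached per body weight differed between the ages, so that age and dose cannot be told apart in that test.

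PIO binds the nuclear receptor PPARγ, which pairs with a retinoid X receptor on DNA and, once bound, recruits coactivators in place of corepressors. In fat, liver and macrophages the receptor family switches on genes of fatty acid uptake, storage and oxidation and represses parts of the NF-κB program of inflammation. Thiazolidinediones also bind proteins of the mitochondrion, among them mitoNEET and the mitochondrial pyruvate carrier, and in the hippocampus they have been studied for calcium handling, neuronal excitability and insulin signaling. The questions addressed here were whether transcripts of these systems differed between young rats on PIO and young rats on control diet, and whether the difference was the same in aged rats.

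The authors' MAS5 signals, in which each array was scaled to a target of 500, were taken to log2, and 1 probe set stood for each of 11632 genes. Array medians ran from 179 to 198 in young controls and from 176 to 189 in young PIO rats. Markers of the hippocampus were present on all young arrays. Prox1, the transcription factor of dentate granule cells, had a lowest, median and highest signal of 1603, 1799.5 and 2000.1 in young controls and 1792, 1871 and 1972 in young PIO rats. Wfs1, a marker of CA1 pyramidal cells, had 1001, 1308 and 1457 in young controls and 1162, 1272 and 1424 in young PIO rats. The array of young control 6 stood apart. It had a median correlation of 0.974 with the other arrays, against at least 0.986 for the other 28, and carried transcripts of neighbouring tissues: Ttr, the transthyretin of the choroid plexus, read 12356 there and at most 282 in the other young controls, and Col1a1, a collagen of the meninges, read 986 there and at most 72.7 in the others. The lists and genes that this array moved most are given with and without it. Below, 3 signals in a row are the lowest, the median and the highest of a group of 8, those of young controls first and those of young PIO rats after "against", and a difference is the mean log2 signal of young PIO minus that of young control with the 95% confidence interval of the limma fit.

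No gene differed between young PIO and young control rats at an adjusted p below 0.05 (limma, Benjamini-Hochberg, 0 of 11632 genes, 0%), and the smallest adjusted p was 0.9996. At an unadjusted p of up to 0.05, the threshold of the study's methods, 300 genes (2.58%) passed, where an even spread of p values would place 582 (5%). Of these, 82 (0.705%) were higher and 218 (1.87%) lower with PIO. Without young control 6, 0 genes (0%) passed the adjusted threshold and 249 (2.14%) the unadjusted one, 97 higher (0.834%) and 152 lower (1.31%). The excess of lower over higher genes depended on the scaling as well, since quantile normalization gave 122 higher and 147 lower. Young control 6 was the highest young control in 93 of the 218 lower genes (42.7%), in 6 of the 82 higher genes, and in 2138 of all genes (18.4%). Of the 300 genes, 170 were at this threshold in the same direction without it, 50 higher and 120 lower. Since an unadjusted p was reached by fewer genes than an even spread gives, it is used below to order genes and to count list members beside the share of all genes, and not as a call.

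**Figure D1:**
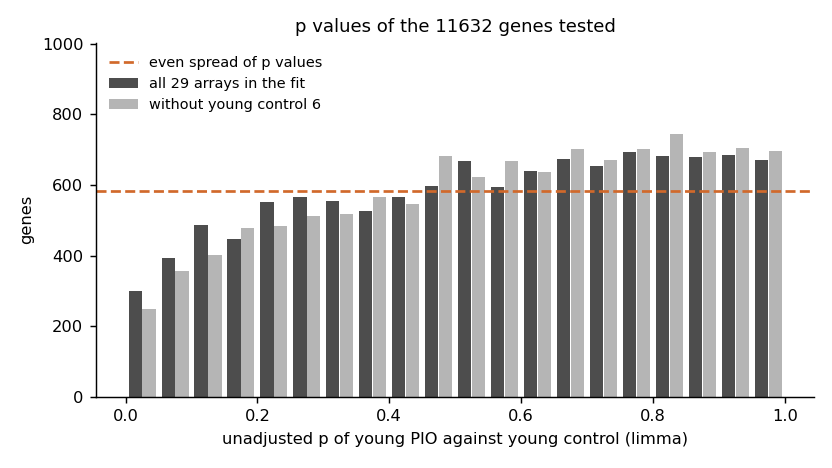
Histogram of the unadjusted p values of 11632 genes in 20 bins, for the fit with all 29 arrays (dark bars) and without young control 6 (light bars), with the count per bin that an even spread gives as a dashed line. The first bin holds 300 genes with all arrays and 249 without young control 6, under the 582 of an even spread.

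The differences themselves were small and measured closely. The median difference over all genes was -0.003, 82.9% of genes lay within 0.1 of 0 on the log2 scale, and the 95% interval reached a median of 0.13 to either side of the difference. In 10844 genes (93.2%) the whole interval lay within 0.5 of 0. In no gene (0%) did the 8 young PIO signals and the 8 young control signals fail to overlap. Only 3 genes had a difference of 1 or more.

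The genes with the smallest p values, among those with a mean signal of at least 100, differed by 0.10 to 0.40 on the higher side and by -0.15 to -0.31 on the lower side, each at an adjusted p of 0.9996, and overlapped between groups. On the higher side stood Fahd1, a mitochondrial hydrolase of acylpyruvates, with signals of 309, 336 and 453 in young controls and 384, 419 and 552 in young PIO rats. All 8 PIO rats lay above the control median and 2 above the highest control, and the difference was 0.32 (0.13 to 0.50, unadjusted p = 0.0016). Bag5, a co-chaperone of Hsp70, gave 782, 924 and 1072 against 997, 1028 and 1168, with a difference of 0.19 (0.06 to 0.31). Pde4a, a phosphodiesterase that breaks down cyclic AMP, gave 313, 438 and 498 against 460.5, 502 and 521, a difference of 0.23 (0.07 to 0.39), with 4 PIO rats above the highest control. The others code in part for the machinery of transcription: Bcl7a, a subunit of the SWI/SNF chromatin remodelling complex (0.10), Med13l, a subunit of Mediator (0.13), and Nelfe, a subunit of the complex that holds RNA polymerase II near its start (0.16). Bcl7a gave 841, 869 and 894 against 859.9, 919.9 and 1012, and 7 of 8 PIO rats were above the highest control, the most of these genes. Trappc10, of a vesicle tethering complex, Wdr41, a partner of the C9orf72 protein, Car6, a secreted carbonic anhydrase, and C12h7orf50 completed the 10, with differences of 0.13, 0.10, 0.23 and 0.40.

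On the lower side, Htatip2, an oxidoreductase also described as a tumor suppressor, gave 266, 303 and 329.6 in young controls and 246, 262 and 286 in young PIO rats, a difference of -0.18 (-0.28 to -0.08, unadjusted p = 0.0012). All 8 PIO rats were below the control median and 5 below the lowest control. Card10, a scaffold that links receptors to NF-κB, gave 101, 122 and 148 against 86.6, 99.3 and 115, a difference of -0.31 (-0.50 to -0.13). Nnmt, which methylates nicotinamide, gave 159, 178 and 198 against 110.1, 149.9 and 191, a difference of -0.26 (-0.43 to -0.09), and 1 PIO rat reached the upper control signals. Elp6, a subunit of the Elongator complex that modifies transfer RNA, gave 366, 377 and 418 against 315, 351 and 373, with 7 of 8 PIO rats below the lowest control and a difference of -0.15 (-0.25 to -0.05). The remaining members were Alkbh6, a dioxygenase of the AlkB type (-0.25), Rrp1b, a nucleolar protein (-0.15), Dnmbp, an exchange factor for Cdc42 (-0.23), Syde1 (-0.24), the zinc finger protein Zfp18 (-0.15) and the uncharacterized LOC102553524 (-0.31). Leaving out young control 6 left these 20 differences between -0.31 and 0.39, each with its sign. In Zfp18, young PIO 1 read 243 where the median of its group was 185, and without that array the unadjusted p of Zfp18 went from 0.005 to 1.4e-05 and its adjusted p to 0.163, the smallest of that fit.

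**Figure D2:**
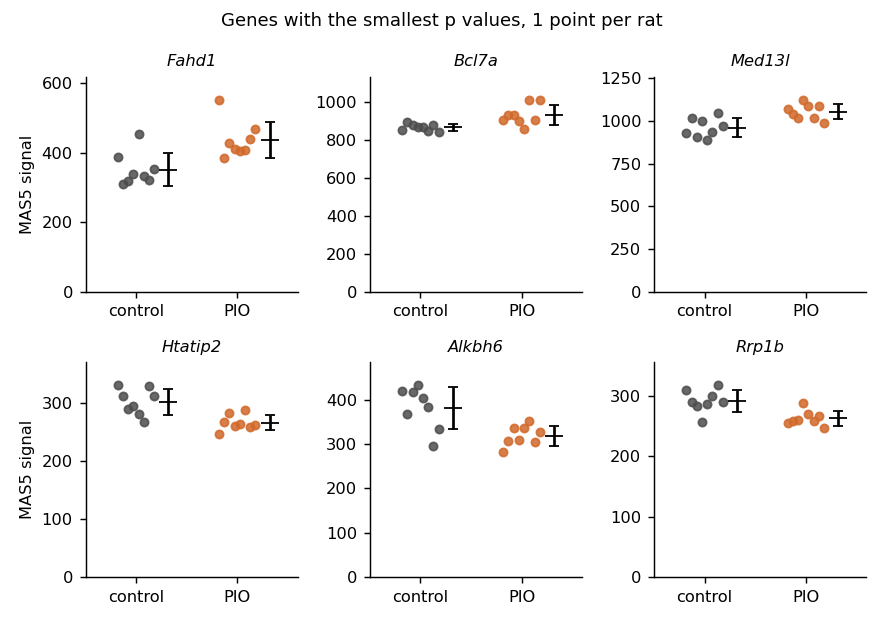
MAS5 signals of the 3 genes with the smallest p on the higher side (upper row) and on the lower side (lower row), 1 point per rat, with the mean and SD of each group of 8 beside the points and axes that start at 0. The groups overlap in every panel. The difference of Fahd1 is 0.32 on the log2 scale.

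No receptor gene of the drug passed a test. Pparg itself was among the dimmest 25% of probe sets, with signals of 13.1, 33.8 and 46.6 in young controls and 15.5, 22.8 and 42.8 in young PIO rats, and a difference of -0.31 (exact permutation test of the diet labels, two-sided, p = 0.244, n = 8 and 8). Ppara, the receptor of the fasting liver, was also under that limit, with 3.68, 22.7 and 30.3 against 3.13, 12.9 and 32.4 and a difference of -0.33 (exact permutation p = 0.615, n = 8 and 8). In both genes the groups overlapped over most of their range. Ppard, the ubiquitous member, gave 195, 246 and 276 against 211, 252 and 307, a difference of 0.04 (-0.13 to 0.22). Of their partners, Rxrb gave -0.02 (-0.13 to 0.09), Rxrg -0.06 (-0.24 to 0.12) and Rxra -0.20 (-0.64 to 0.24). Over the list of receptors and coregulators, 16 of 20 genes passed the filter on dim probe sets, 9 differences were positive and 7 negative, and none had an unadjusted p of up to 0.05, where the background was 2.58%. Among the coactivators, Ncoa3 gave -0.15 (-0.40 to 0.09), Ppargc1b -0.14 (-0.34 to 0.06) and Crebbp 0.04 (-0.06 to 0.14). The other proteins that bind the drug had narrow intervals. Cisd1, which codes for mitoNEET, gave 4164 ± 152 in young controls and 4209 ± 208 in young PIO rats (mean ± SD), a difference of 0.01 (-0.06 to 0.08). Mpc1 and Mpc2, the pyruvate carrier, gave 0.02 (-0.04 to 0.08) and 0.03 (-0.08 to 0.14). Maob, a monoamine oxidase that the drug binds, gave -0.04 (-0.13 to 0.04) and Acsl4, an acyl-CoA synthetase, gave -0.0069 (-0.09 to 0.08).

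Genes listed as PPAR targets, or as members of the lipid and fat cell programs that PPARs govern in other tissues, differed little, and none passed a test. They are called PPAR target genes below. Not all of them are established targets that PPARs induce, Cebpb and Cpt1c among them, so no single direction was expected of the list. Of 94 such genes, 66 passed the filter, 21 were too dim and 7 had no probe set under their symbol alone. Among the 66, 27 differences were positive and 39 negative, the median was -0.016, with -0.003 over all genes, 52 lay within 0.1 of 0, and 59 had an interval within 0.5 of 0. None had an adjusted p below 0.05 (limma) or an unadjusted p of up to 0.05 (background 2.58%). At the unadjusted threshold stood 1 without young control 6, which was Cyp4a3, and 3 without young PIO 1, where 2.14% and 3.68% of all genes were there. By role, 4 of 10 genes of lipid uptake and transport were positive (median -0.04), 8 of 12 of storage and the fat cell (0.0082), 11 of 28 of fatty acid oxidation (-0.0073, with 15 of 28 positive and a median of 0.0039 without young control 6) and 4 of 17 others (-0.04), with 1 gene counted under 2 roles.

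In fatty acid uptake, Lpl, the lipase that frees fatty acids at the vessel wall, gave 852, 894 and 984 in young controls and 691, 853 and 957 in young PIO rats, a difference of -0.09 (-0.22 to 0.04), and Slc27a4, a fatty acid transporter, gave 0.07 (-0.02 to 0.16). Cd36 and Fabp4, the scavenger receptor and the fatty acid binding protein that these drugs induce in fat, were near the bottom of the signal range. Cd36 read 1.48, 6.38 and 15.7 against 1.88, 9.83 and 23.0, a difference of 0.74 (exact permutation p = 0.234), and Fabp4 2.87, 14.3 and 31.3 against 1.04, 13.1 and 22.2, a difference of -0.87 (exact permutation p = 0.241). Adipoq, the hormone of fat cells, was as dim, with 3.34, 11.4 and 48.7 against 3.59, 15.6 and 24.0, a difference of 0.18 (exact permutation p = 0.736). At these levels none of the 3 could be tested across arrays with the precision of the brighter targets. In storage, Plin2, which coats lipid droplets, gave 181, 212 and 264 against 183, 219.6 and 255, a difference of 0.01 (-0.16 to 0.18), and Scd, the stearoyl-CoA desaturase, gave 182, 209 and 276 against 223, 250.3 and 269, a difference of 0.18 (-0.02 to 0.38) with 8 of 8 PIO rats above the control median. Cebpb, a transcription factor of fat cell differentiation, had the most positive value of all 66, 0.25 (-0.07 to 0.58), from signals of 286, 387 and 534 against 290.0, 479 and 629. In oxidation, Cpt1a, the gate of fatty acids into the mitochondrion, gave -0.04 (-0.12 to 0.05), and Acaa2, a thiolase, -0.09 (-0.19 to 0.0041), which was -0.05 without young control 6, the highest control at 848. Among other targets, Angptl4, an inhibitor of Lpl, gave 160.4, 229 and 258 against 176, 203 and 252, a difference of -0.08 (-0.27 to 0.12). Pdk4, which restrains pyruvate dehydrogenase, gave 96.7, 134 and 376 against 94.6, 141 and 188, a difference of -0.12 with a wide interval (-0.65 to 0.41), and Ucp2, the uncoupling protein, -0.03 (-0.19 to 0.13).

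**Figure D3:**
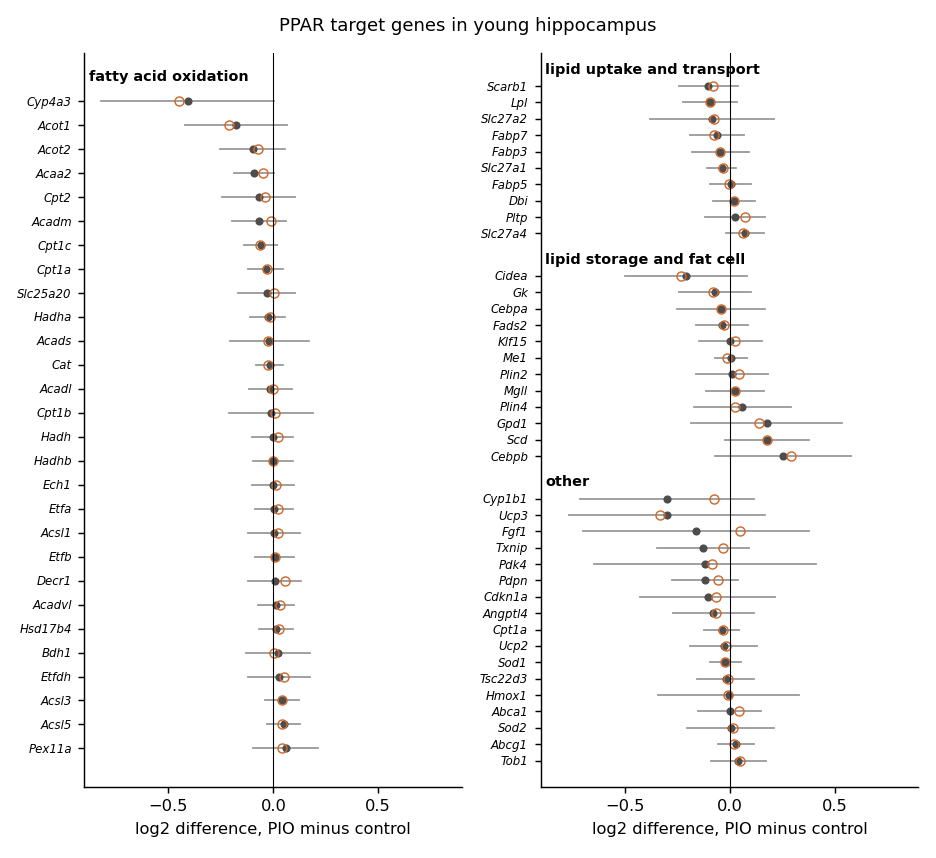
Log2 difference, young PIO minus young control, of the PPAR target genes that passed the filter, in 4 groups by role, with 95% confidence intervals of the limma fit (grey lines). Filled points are all 29 arrays in the fit and open rings the fit without young control 6. The 66 differences lie between -0.41 for Cyp4a3 and 0.25 for Cebpb, and 52 are within 0.1 of 0.

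PPARs bind DNA as a pair with a retinoid X receptor on 2 copies of a half-site of 6 bases, AGGTCA, set in the same direction with 1 base between them. Windows from 250 bases before to 50 bases after the gene start, from RefSeq on the GRCr8 build, were found for 70 of the target genes and searched on both strands. The exact repeat was in 18 of 33469 windows (0.0538%) and in none of the 70. With the fourth base of each half-site left free (AGGNCA), it was in 139 windows (0.415%) and, of the target genes, in that of Fabp1 alone. The single half-site AGGTCA, which every exact repeat contains, was in 5415 windows (16.2%) and in 16 of the 70 (22.9%). Stretches of 5 windows are shown: the repeat of Fabp1, the half-sites of Cat and Acadvl, target genes with narrow intervals, and the half-sites of Cyp4a3 and Ucp3, which had negative differences with wide intervals. They are given 5′ to 3′ along the gene's own strand with the match in capitals. In Fabp1 the match reads on the opposite strand.
Fabp1, chr4:104749243-104749295, plus strand: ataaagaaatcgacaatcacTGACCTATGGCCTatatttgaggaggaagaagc
Cat, chr3:110329670-110329715, minus strand: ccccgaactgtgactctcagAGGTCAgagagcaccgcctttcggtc
Acadvl, chr10:55236849-55236894, minus strand: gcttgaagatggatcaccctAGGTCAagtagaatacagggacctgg
Cyp4a3, chr5:134352316-134352361, minus strand: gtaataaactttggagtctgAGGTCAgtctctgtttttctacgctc
Ucp3, chr1:164227735-164227780, plus strand: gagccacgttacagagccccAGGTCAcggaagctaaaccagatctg
A match is a stretch of letters and not a measured site. Fabp1, Cat and Acadvl were named for these sequences and not by the rule for named genes. Fabp1, a fatty acid binding protein of liver, was too dim to test, with signals of 0.947, 3.01 and 26.7 against 1.86, 8.19 and 28.1. Cat, the catalase of the peroxisome, gave 1453, 1560.2 and 1636 in young controls and 1435, 1529 and 1605 in young PIO rats, a difference of -0.02 (-0.08 to 0.05), and Acadvl, an acyl-CoA dehydrogenase for very long chains, gave 497, 563 and 619.8 against 526.4, 559 and 619, a difference of 0.01 (-0.07 to 0.10). Cyp4a3, a fatty acid hydroxylase, gave 48.4, 74.5 and 93.5 against 37.0, 47.7 and 87.5, a difference of -0.41 (-0.82 to 0.0047, unadjusted p = 0.0525), and Ucp3, an uncoupling protein of muscle, gave 63.0, 81.9 and 136 against 51.4, 73.9 and 92.8, a difference of -0.30 (-0.76 to 0.17). Without young control 6 the difference of Cyp4a3 was -0.45 (unadjusted p = 0.0408) and without young PIO 1, which read 87.5, it was -0.51 (unadjusted p = 0.0156). The groups overlapped in each of the 5 genes.

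Genes of insulin signaling and of energy metabolism, 2 further systems that the drug acts on in the periphery, lay close to 0. Insr, the insulin receptor, gave 154, 193 and 215 in young controls and 178, 191 and 210.3 in young PIO rats, a difference of 0.03 (-0.11 to 0.17), and Igf1r, the receptor of insulin-like growth factor, gave 752, 786 and 975 against 732, 818 and 894, a difference of -0.03 (-0.17 to 0.12). Of 49 genes of insulin receptor signaling, 36 passed the filter, 14 were positive and 22 negative, the median was -0.0099 and none had an unadjusted p of up to 0.05. Without young control 6 the median was 0.0034, with 19 of 36 positive. The most negative of them, Igf2 at -0.49, is also made by choroid plexus and meninges and stood at -0.02 without young control 6, where it read 3359. Glucose transport and glycolysis (26 of 30 tested, median 0.009) ran from Slc2a1 at -0.04 to the hexokinase Hk2 at 0.27 (-0.06 to 0.60), with 0 at the unadjusted threshold. The 30 tested genes of mitochondrial electron transport spanned only -0.05 to 0.07, all with an interval within 0.5 of 0. Atp5f1a, a subunit of the catalytic core of ATP synthase, gave 5985 ± 253 in young controls and 6109 ± 179 in young PIO rats (mean ± SD), a difference of 0.03 (-0.03 to 0.09). Cholesterol and fatty acid synthesis (30 of 36 tested, median -0.0031) had 1 gene at the unadjusted threshold, on the higher side (background 0.705%): Sqle, squalene epoxidase, with 849.7, 966 and 1029.5 against 919, 1027 and 1076, a difference of 0.10 (0.0011 to 0.19, unadjusted p = 0.0475), which was not at the threshold without young control 6 (0.09, unadjusted p = 0.0755). In antioxidant defence (25 of 27 tested, median 0.0014) 1 gene stood there on the lower side (background 1.87%): Nfe2l2, which codes for Nrf2, the transcription factor of that system, with 622, 690.2 and 832 against 579.6, 614 and 756, a difference of -0.15 (-0.27 to -0.03, unadjusted p = 0.0187) that was -0.11 (unadjusted p = 0.0567) without young control 6. Young PIO 1 held the highest PIO signal of Nfe2l2, 756, where the other young PIO rats read 579.6 to 638. That array brought the PIO mean nearer to the controls. The Nrf2 target Nqo1 gave -0.09 (-0.22 to 0.03).

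Genes of excitability and of the synapse, the systems in which the study recorded from slices, had no gene at an adjusted p below 0.05 (limma), and most lists lay within a few hundredths of 0. The 32 tested genes of synaptic transmission had a median of 0.03 with 26 positive, and the 17 tested neuronal markers 0.03 with 14 positive, where 47.4% of all genes were positive. Without young control 6, which was low in both lists (median deviations of -0.09 and -0.11 from the other young controls), the medians were 0.02 and 0.02. Then 22 of 32 and 13 of 17 were positive. Syp, the synaptophysin of synaptic vesicles, gave 4531, 4897 and 5235 in young controls and 4573, 5231 and 5555 in young PIO rats, a difference of 0.07 (-0.03 to 0.16). The list drawn up for potassium channels of the afterhyperpolarization (12 of 19 tested) had a median of 0.05, and of 0.01 without young control 6. It also held Kcna1, Kcna2 and Kcnd2, potassium channels of other currents, and Hcn2, a channel of the hyperpolarization-activated current. Its median therefore does not describe the afterhyperpolarization channels alone. Hcn2 was the only member at the unadjusted threshold (limma, unadjusted p = 0.0438, background 0.705% higher). Without young control 6, 1 member was there, on the higher side (background 0.834%). The signals of Hcn2 were 357, 448 and 501 against 427, 499 and 551, with 4 of 8 PIO rats above the highest control and a difference of 0.15 (0.0045 to 0.30). Calcium channels, stores and pumps (40 of 42 tested) had a median of 0.0025 with 21 positive, and of -0.0077 with 17 positive without young control 6. They ran from Cacna1i, a T-type channel, at -0.22 (-0.44 to 0.01) to Cacna1e at 0.20, and Ryr2, the ryanodine receptor, gave 0.07 (-0.03 to 0.16). In the 26 tested activity-regulated early genes (median 0.05), Fos gave 132, 151 and 748 against 149, 380.5 and 475. There 7 of 8 PIO rats were above the control median, the 2 highest signals were those of controls, and the difference of 0.58 had an interval of -0.16 to 1.32. Without young PIO 1, the lowest PIO array for Fos, it was 0.75 (unadjusted p = 0.0474). Nos1, the neuronal nitric oxide synthase and the only inhibitory neuron marker of 14 at the unadjusted threshold (background 1.87% lower), gave 58.2, 68.2 and 76.1 against 27.1, 50.7 and 64.6, a difference of -0.49 (-0.84 to -0.13, unadjusted p = 0.0094), with 6 of 8 PIO rats below the lowest control. Markers of dentate granule cells (9 of 14 tested, median 0.0095), of pyramidal cells (18 of 21 tested, median 0.00083) and genes of the glucocorticoid response (16 of 19 tested, median 0.02) had 0 members at the unadjusted threshold. Without young control 6 the medians of dentate and pyramidal markers were -0.01 and -0.00089.

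Inflammatory genes, on which PPARγ agonists act in macrophages, were on both sides of 0. Of 52 mediators and NF-κB genes, 35 passed the filter, 15 were positive and 20 negative, and the median was -0.01, or 0.02 with 18 positive without young control 6. A single member was at the unadjusted threshold, on the lower side (background 1.87%): Tlr4, the receptor of lipopolysaccharide, with 52.8, 62.7 and 87.2 in young controls and 37.2, 54.4 and 63.0 in young PIO rats, 4 of 8 below the lowest control, and a difference of -0.30 (-0.55 to -0.04, unadjusted p = 0.0266). Icam1, an adhesion molecule, had the most negative value, -0.85, with a wide interval (-1.85 to 0.15). Its signals were 66.7, 75.7 and 145.3 against 11.1, 65.8 and 96.6, and young PIO 2 and 3 alone lay far under the others. The interleukin genes that the study followed stayed near 0: Il18 gave -0.04 (-0.19 to 0.11), Il33 0.05 (-0.05 to 0.14), Il16 -0.01 (-0.12 to 0.09) and the receptor subunit Il10rb 0.01 (-0.17 to 0.19). Zfp36, which destabilizes cytokine mRNA, gave 154, 173 and 251 against 169, 205 and 247, a difference of 0.18 (-0.05 to 0.41), and F3, tissue factor, 0.08 (-0.04 to 0.20). Serpina3n and Mug1, 2 protease inhibitors, were among the dimmest 25% of probe sets. Serpina3n gave 7.25, 18.04 and 25.8 against 2.55, 11.7 and 16.9 (exact permutation p = 0.184) and Mug1 0.491, 6.47 and 12.2 against 2.15, 8.04 and 15.3 (exact permutation p = 0.27).

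Microglial markers (28 of 32 tested) had a median of -0.0047, with 12 positive and 16 negative and 0 at the unadjusted threshold. The list ran from Cd14 at -0.31, for which young control 6 was the highest control at 156, to Trem2, a lipid receptor of microglia, at 0.39 (-0.19 to 0.97). Itgam, the integrin CD11b, gave 73.6, 91.3 and 117 against 89.3, 105 and 152, a difference of 0.25 (-0.02 to 0.52). The array of young PIO 1 was above all other PIO arrays in 17 of the 28, and in 18 of 21 markers of oligodendrocytes, and the microglial median without it was -0.05, where that without young control 6 was 0.01. The antigen-presenting genes of MHC class II had the most positive median of the 35 lists, 0.10 over 8 genes. Cd74, the invariant chain, gave 114, 179 and 661 in young controls and 86.1, 189.6 and 686 in young PIO rats, and RT1-Da, an alpha chain, gave 82.8, 126 and 534 against 60.0, 166 and 639.8. In both genes young control 6 (661 and 534) was the highest control, and young PIO 1 (686 and 578) and young PIO 8 were far above the other PIO rats. The list median was 0.31 without young control 6 and -0.03 without young PIO 1, and the interval of Cd74 ran from -0.68 to 1.06. Complement (-0.05), interferon response (-0.02), MHC class I (-0.06), astrocytes (-0.02) and oligodendrocytes (0.0051) had no member at the unadjusted threshold. Without young control 6, 1 member of MHC class I was there, on the higher side, and 3 of the interferon response were, 2 higher and 1 lower, where 0.834% of all genes were higher and 1.31% lower. The medians without that array were 0.02 for the interferon response, -0.01 for MHC class I, -0.02 for oligodendrocytes and, with 7 of 11 genes positive, 0.04 for complement. Of the astrocyte markers 4 of 17 were positive with all arrays and 5 of 17 without young control 6. For MHC class I these counts were 2 of 11 and 3 of 11.

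**Figure D4:**
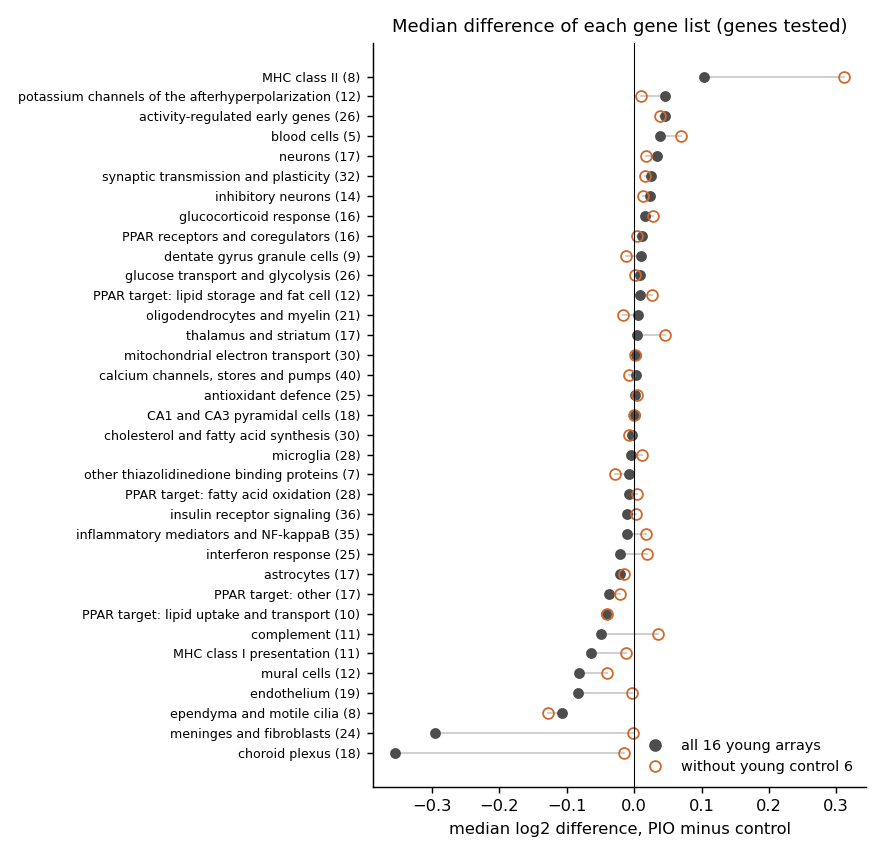
Median log2 difference, young PIO minus young control, of 35 gene lists, with the number of genes tested in brackets. Filled points are all arrays and open rings the fit without young control 6. Choroid plexus and meninges move from -0.35 and -0.29 to about 0 without that array, and MHC class II from 0.10 to 0.31.

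The most negative lists were those of choroid plexus and meninges, and without young control 6 both medians were close to 0. Of 18 choroid plexus genes tested, 15 were negative with a median of -0.35, and of 24 meningeal genes 23 were negative with a median of -0.29, where the median of all genes was -0.003. Without it the medians were -0.01 and -0.0014, with 8 of 18 and 12 of 24 positive. That array was above every other young control in 16 of the 18 and 23 of the 24. The filter on dim probe sets used the mean over all 29 arrays, with that array among them. Some members, such as Sostdc1, passed the filter only through that array, so these counts describe it and do not test it. At the unadjusted threshold were 3 choroid plexus genes and 1 meningeal gene with all arrays, all lower (background 1.87%), and 1 and 0 without it (background 1.31%). Ttr gave 131, 236 and 12356 in young controls and 106, 173 and 754 in young PIO rats, where young PIO 1 held the highest signal, and its difference was -0.78 with all arrays and -0.04 without young control 6. Sostdc1, a secreted antagonist made by choroid plexus, read 1777 on young control 6, at most 46.1 on the other young controls and 35.4, 41.4 and 46.7 in young PIO rats, and its difference turned from -0.49 to 0.21. Ogn, a matrix proteoglycan of the meninges, read 3415 and at most 154, and went from -0.52 to 0.06.

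Among markers of the vessels, 2 single endothelial genes stayed at the unadjusted threshold without that array, while the endothelial median was then close to 0. Endothelial genes (19 of 22 tested) had 15 negative values, a median of -0.08 and 4 members at the unadjusted threshold, all lower (background 1.87%): Pecam1, Tek, Edn1 and Ocln. Young control 6 deviated from the other young controls by a median of 0.65 over this list, and without it the median was -0.0036, with 9 of 19 positive and 2 members at the threshold (background 1.31%). Pecam1, an adhesion molecule of endothelial junctions, gave 130.2, 143 and 211 in young controls and 73.6, 128 and 146 in young PIO rats, 5 of 8 below the lowest control, with a difference of -0.35 (-0.63 to -0.07, unadjusted p = 0.0147) and of -0.28 (unadjusted p = 0.0425) without young control 6. Tek, the angiopoietin receptor, gave 436, 484 and 829.8 against 374, 439 and 489, a difference of -0.24 and, without that array, of -0.15 (unadjusted p = 0.0391). Edn1, endothelin 1, gave -0.31 and -0.23, and Ocln, occludin of tight junctions, -0.20 and -0.08, and both missed the threshold without it (unadjusted p = 0.101 and 0.0741). The 12 tested mural genes had a median of -0.08 with all arrays and -0.04 without young control 6. Of the ependymal genes, 8 of 21 were tested, with 7 negative and a median of -0.11, -0.13 without that array. Rsph1, a radial spoke protein of motile cilia, gave 55.7, 89.6 and 106 against 49.3, 70.8 and 91.1, a difference of -0.34 (-0.61 to -0.08, unadjusted p = 0.0133). It was the only ependymal gene at the unadjusted threshold (background 1.87% lower), and 2 were there without young control 6, both lower (background 1.31%). Markers of blood cells (5 tested, median 0.04) and of thalamus and striatum (17 tested, median 0.0041, 0.05 without young control 6) had 0 members at the threshold. Whether vessel content of the tissue pieces moved with these values was not tested.

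**Figure D5:**
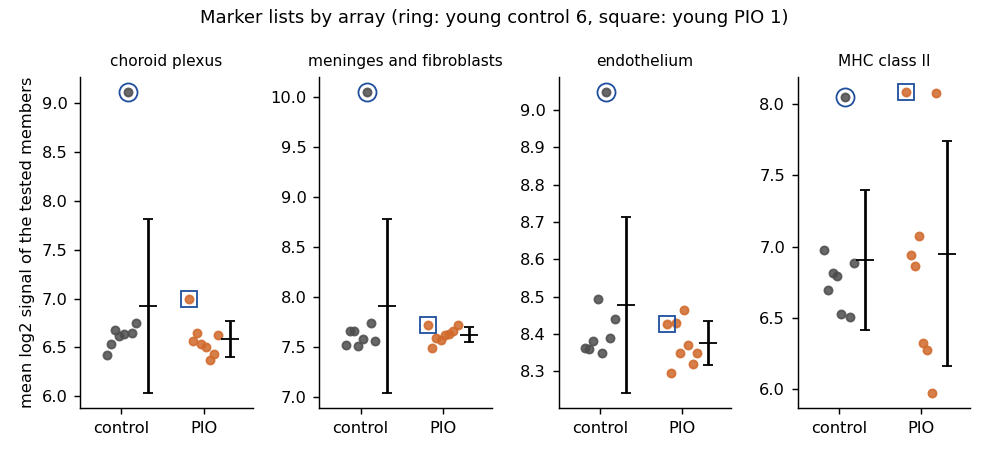
Mean log2 signal of the tested members of 4 marker lists on each young array, 1 point per rat, with the mean and SD of each group of 8. Young control 6 (ring) reaches 9.12 for choroid plexus and 10.05 for meninges, where the other young controls reach at most 6.75 and 7.74. Young PIO 1 (square) is among the 2 highest young PIO arrays for MHC class II.

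The difference was set against that of the aged rats on PIO, an independent set of animals, by the interaction of the same fit. No gene passed (0 of 11632, 0%, at an adjusted p below 0.05, smallest 0.9997), and 204 (1.75%) were at an unadjusted p of up to 0.05. The aged comparison alone gave 0 genes (0%) and 192 (1.65%). The interaction's interval, which is not adjusted for the number of genes, reached a median of 0.20 to either side. That width is not the limit of detection at the adjusted threshold. Fahd1 and Hdac7, given next, had larger interactions and still an adjusted p of 0.9997 (limma). Fahd1 had the smallest p on its side: the difference was 0.32 in young rats and -0.17 in aged rats, in which control signals of 339.8, 417 and 507 (lowest, median and highest of 7) and PIO signals of 288, 373 and 429.9 (of 6) were measured, and the interaction was -0.49 (SE 0.13, unadjusted p = 0.0012). Bag5 gave 0.19 and -0.12, and Rrp12, a factor of ribosome assembly, 0.10 and -0.16. In the other direction, Hdac7, a histone deacetylase, gave -0.24 in young and 0.26 in aged rats (interaction 0.50, SE 0.15, unadjusted p = 0.0022), Elp6 -0.15 and 0.09, and the zinc finger protein Zfp324 -0.19 and 0.24. In Hdac7 the young PIO rats read 113, 146 and 203 where young controls read 151, 175 and 202, and the groups overlapped. The paper names Tlr4, F3 and Mug1 for an interaction at an unadjusted p, but judged their number not significant. Here Tlr4 gave -0.30 in young and 0.13 in aged rats (limma interaction, unadjusted p = 0.0339). F3 gave 0.08 and -0.10 (unadjusted p = 0.0489). Mug1, too dim for the main fit, gave 0.80 and -0.76 without the filter (limma, unadjusted p = 0.0713). Zfp36 and the dim Serpina3n, named for the drug, gave 0.18 and 0.20, and -0.57 and -0.56. The 66 PPAR target genes had a median of 0.009 in aged rats, with 0 at the unadjusted threshold there.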

How the data were processed

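Hippocampal RNA of 29 rats was hybridised to Affymetrix RAE230 2.0 arrays, 1 animal per array. The deposited values are MAS5 intensity signals on a linear scale, which the authors scaled to a target of 500 on every array, and arrays have no read depth, so that precision rests on the number of animals. The labels give separate animals per group. The deposited signals were taken to log2 here. Of 31099 probe sets, 57 controls were dropped, 20826 had 1 gene symbol in the platform annotation, 436 several and 9780 none. Each gene was represented by its probe set of highest mean signal, and probe sets under the 25th percentile of mean signal (44.4) were left out, which left 11632 genes and kept most rare transcripts out of the fit.

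A linear model with 4 groups (young and aged, control and PIO) was fitted to all arrays in limma 3.58.1 (R 4.3.3), with moderated errors and Benjamini-Hochberg adjustment over all genes. The interaction was the aged minus the young difference. Named genes under the limit, other than Fabp1, got a two-sided exact permutation test of the diet labels over the young arrays (Python 3.11.15, numpy 2.4.6). Named genes were the 10 with the smallest p in each direction at a mean signal of at least 100, the 3 of the interaction in each direction, fixed drug, interleukin and tissue genes, and up to 4 members of smallest p per list. Slc2a1 and Cacna1e ended the range of a list and were named after their values were seen. The 35 gene lists (824 genes, 643 tested) and the members of the comparison were chosen with earlier results of these data known. Ednra had no probe set under its symbol alone and is not reported. The methods' presence calls were not used here. The script was tested on simulated data. Promoter windows came from RefSeq on the GRCr8 build.

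Alternatives were the young arrays alone, the methods' test per gene on linear and on log2 signals, quantile normalization, no filter, the brighter 50% of probe sets, 16 added to each signal, every probe set on its own, robust moderation, array weights, the subject number as a block, each young array left out, and, chosen after seeing the data, young control 6 and young PIO 1 left out together.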

Additional observations from a re-analysis of the deposited data

Results flagged for a closer look

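Within each group of 8, the gap of the highest or lowest array to its neighbour was divided by the range of the group. A ratio over 0.526 was taken up, and chance alone gives about 1 in 20 groups. Of 258 groups of signals and list scores examined, 33 exceeded it, 22 of them through young control 6 and 6 through young PIO 1. The choroid plexus and meningeal genes examined were chosen in part by their deviation on young control 6, and some lists share genes. The 33 can therefore not be set against the share that chance gives. On young control 6 the ratios of choroid plexus and meningeal genes were 0.988 for Ttr, 0.991 for Sostdc1, 0.990 for Ogn, 0.930 for Col1a1 and 0.972 for Igf2. On the same array they were 0.875 for Cd74 and 0.806 for RT1-Da, and among endothelial genes 0.822 for Ocln, 0.736 for Tek and 0.607 for Pecam1. It was also the highest control in F3 (0.663), Adipoq (0.639) and Acaa2 (0.632).

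The scores of 9 lists had young control 6 at the top: meninges (0.909), choroid plexus (0.880), mural cells (0.832), endothelium (0.796), insulin receptor signaling (0.747), MHC class II (0.694), interferon response (0.620), MHC class I (0.617) and complement (0.596). Young PIO 1 was the highest PIO array in the scores of complement (0.701) and choroid plexus (0.562), and in the signals of Ttr (0.803), Nfe2l2 (0.666), Zfp18 (0.634) and Il18 (0.528). The other 5 were single genes: Pdk4 on young control 7 (0.682), Il33 on young PIO 4 (0.640), the lowest signals of Ppargc1b on young PIO 7 (0.640) and of Mpc1 on young PIO 2 (0.576), and Ryr2 on young PIO 2 (0.529).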

How the results depend on the processing

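No gene passed an adjusted p below 0.05 under any of the 28 alternatives for the young comparison, with limma or the methods' test per gene, and none passed for the interaction under those that could fit it. The number of genes at an unadjusted p of up to 0.05 was 300 with all settings as reported, 162 over the brighter 50% of probe sets (99 lower) and 622 over every probe set on its own (196 higher, 426 lower), where fewer and more features were tested. It was 269 by the methods' test on linear signals and 294 on log2 signals. Higher genes were 82, and 124 with a weight per array. Leaving out 1 young array at a time gave 249 to 428 genes, 68 to 127 higher and 152 to 312 lower. The lowest total came without young control 6, the highest without young PIO 1, and the 127 without young control 8. The cause was not tested. Without young PIO 1 the smallest adjusted p (limma) was 0.163, and without that array and young control 6 together, an alternative chosen after seeing the data, 0.307. For the interaction, 130 and 432 genes were at the unadjusted threshold over the brighter 50% and over every probe set, with 204 as reported.

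Subject numbers are shared between groups in the labels. Arrays of the same number correlated at -0.02 to 0.17 in their deviations from the group means, over 0.1 in 5 of 8 pairs, and 3 of 8 young controls correlated best with their own number. These correlations do not settle whether the numbers pair the animals. The labels do not speak of pairs, and the main fit did not use the numbers. With the replicate block, 0 genes passed the adjusted threshold and 126 higher and 293 lower genes the unadjusted one, where the main fit had 82 and 218. The methods describe rats bought in 2 groups, and since no label says which rat belonged to which, this could not enter the fit.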
